A study of Mus musculus with 16 samples.

Results

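The genes of de novo lipogenesis, the synthesis of fatty acids from acetyl-CoA, were examined by bulk RNA sequencing of whole hippocampus in 16 female mice. The members were 9 genes picked by name from the 55335 genes of the deposited count table. They were the enzymes Acly, Me1, Acaca, Acacb and Fasn and the transcriptional regulators Srebf1, Mlxipl, Nr1h2 and Nr1h3. The mice fell into 4 groups of 4: WT-D and 3xTg-D received vehicle (0.8% DMSO in artificial cerebrospinal fluid) into the lateral ventricle for 28 days, and WT-S and 3xTg-S received the stearoyl-CoA desaturase inhibitor (SCDi) at 80 µM in that vehicle. All mice carried a pump and were labelled as 10 months old. The strain label of the WT mice was C57BL/6J x 129S1 and that of the 3xTg mice was B6;129-Psen1tm1MpmTg(APPSwe,tauP301L)1Lfa/Mmjax. The 3xTg mouse, a model of Alzheimer's disease, expresses human mutant APP and tau from a neuronal Thy1.2 promoter on a mutant presenilin 1 knock-in. WT and 3xTg mice were kept as separate lines, so the transgenes and any other difference between the lines cannot be told apart. The titles and treatment labels of the SCDi mice named the Cayman inhibitor (CAY10566 in the study), whereas a protocol text shared by all samples, which also gives the 80 µM, named ab142089.

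In de novo lipogenesis, ATP citrate lyase (Acly) cleaves cytosolic citrate to acetyl-CoA, and malic enzyme 1 (Me1) supplies NADPH. The acetyl-CoA carboxylases convert acetyl-CoA to malonyl-CoA, Acaca in the cytosol and Acacb at the mitochondrial surface, where malonyl-CoA restrains fatty acid oxidation. Fatty acid synthase (Fasn) then builds palmitate, which is elongated and desaturated further on, the latter by the enzyme that SCDi inhibits. Srebf1 encodes SREBP1, Mlxipl encodes the carbohydrate-responsive factor ChREBP, and Nr1h3 and Nr1h2 encode the oxysterol receptors LXRα and LXRβ, which induce Srebf1 in many tissues. In brain the pathway serves, among other processes, the making of membranes and myelin.

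Libraries held 15413385 to 23590149 reads on genes, and the share of reads outside annotated genes was 7.82 to 15.1%. As a check of the tissue label, neuronal markers summed to 4893 to 6199 CPM over 5 genes and hippocampal subfield markers to 427 to 575 CPM over 4 genes. Adipocyte markers, of interest because fat is a major lipogenic tissue, summed to 0.196 to 0.637 CPM, with Adipoq at 0 in 15 of 16 mice. The summed choroid plexus markers stood at 723 CPM in WT-D mouse 4 and 289 CPM in WT-S mouse 1, against 26.7 to 60.6 CPM in the other 14 mice, and calls lost without these mice are named beside the result. All 9 members passed the filter on low counts, as did 16475 genes in all. Levels are given as CPM, the reads of a gene relative to the library's reads on genes after TMM scaling over the 16 mice. A gene is said to be called in a comparison where edgeR's quasi-likelihood test gave it an unadjusted p of 0.01 or less, the threshold of the study, and the Benjamini-Hochberg adjusted p is printed beside the difference. As this was bulk tissue, fewer cells of a type and less RNA per cell cannot be told apart.

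To set the members against each other, CPM was divided by exon length in kb. Acly was the most abundant, at 30.9 ± 2.51 CPM per kb (SD, n = 16 mice), followed by Fasn at 17.8 ± 1.94, Me1 at 15.6 ± 1.17, Nr1h2 at 6.37 ± 0.466, Srebf1 at 5.45 ± 0.709 and Acaca at 2.14 ± 0.251 CPM per kb. The lowest levels were those of Nr1h3 (0.672 ± 0.140), Acacb (0.562 ± 0.0739) and Mlxipl (0.399 ± 0.0866 CPM per kb). These levels spanned the 92.0th (Acly) to the 12.2nd (Mlxipl) percentile of the tested genes with a known length. Over the 16 mice, neighbours in this order did not overlap for Acly and Fasn, Me1 and Nr1h2, Srebf1 and Acaca, and Acaca and Nr1h3. Fasn and Me1, Nr1h2 and Srebf1, Nr1h3 and Acacb, and Acacb and Mlxipl overlapped. Of the carboxylases, the cytosolic form was thus the more abundant, and of the LXR genes it was Nr1h2.

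**Figure D1:**
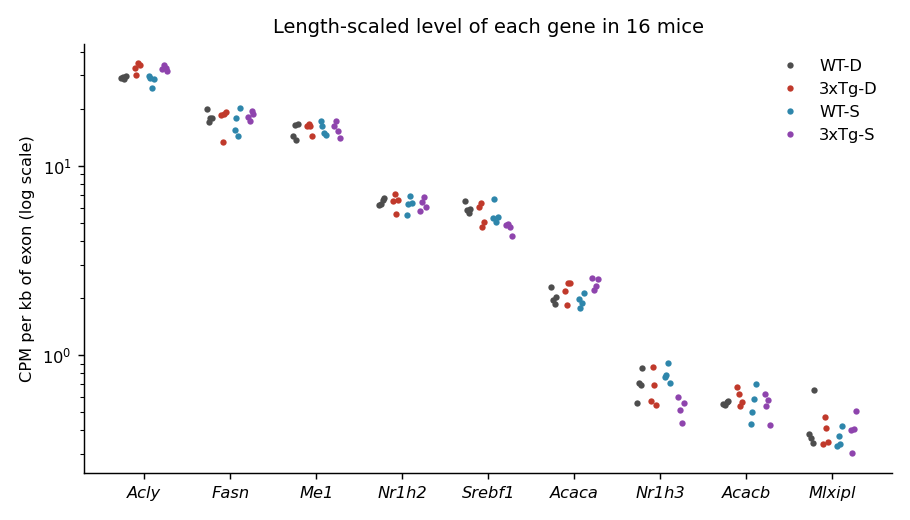
Level of each member in CPM per kb of exon (log axis), in which each point is 1 of 16 mice and colours mark the 4 groups. Acly lies highest, at 25.8 to 34.7 CPM per kb, and Mlxipl lowest, at 0.301 to 0.655.

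Acly (ENSMUSG00000020917.17, GRCm38 chr11:100476353-100528000, minus strand) separated the genotypes. Its level was 153, 156, 152 and 157 CPM for mice 1 to 4 of WT-D and 158, 153, 136 and 153 CPM in WT-S. In 3xTg-D it was 173, 160.1, 183 and 180.4 CPM, and in 3xTg-S 172, 181, 174 and 167 CPM. All 8 3xTg mice thus lay above all 8 WT mice, which was the case, in either direction, for 1.7% of the tested genes. Over both treatments Acly was higher in 3xTg by 14.3% and was called (log2 fold change 0.19 ± 0.04 (SE), edgeR's quasi-likelihood test, Benjamini-Hochberg adjusted p = 0.00525). This call held when any of the 16 mice was left out, with log2 differences of 0.17 to 0.20.

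Within treatments, the vehicle groups had Acly means of 154 ± 2.53 CPM (SD, n = 4) for WT-D and 174 ± 10.4 CPM for 3xTg-D. This difference of 0.18 ± 0.05 on the log2 scale was called (edgeR, adjusted p = 0.165). Under SCDi it was 150.0 ± 9.46 CPM in WT-S and 174 ± 5.80 CPM in 3xTg-S, a log2 difference of 0.20 ± 0.07 that missed the threshold (edgeR, adjusted p = 0.306). The groups did not overlap in either pair. The vehicle call held in 1 of 8 fits that each left out a mouse, the fit without 3xTg-D mouse 2, and was lost without any other, with log2 differences of 0.15 to 0.21 over the 8 fits. WT-D mouse 4, among those without which the call was lost, is the mouse of this pair high in choroid plexus markers. Summed oligodendrocyte markers, for a cell type rich in lipid synthesis, were 5298 to 6376 CPM in 3xTg-D and 4070 to 4826 CPM in WT-D. This was a log2 difference of 0.38 (exact permutation test, two-sided, p = 0.0286, the smallest that 4 against 4 mice allow, adjusted p = 0.714 over 50 tests), and 3 of the 5 markers were called higher. With this sum as a covariate, the log2 difference of Acly was 0.32 and was not called. Genes called fell from 809 to 226 of 16475 in this fit. Because the sum did not overlap between these groups, that fit could hardly separate it from genotype. Under SCDi the oligodendrocyte sum overlapped, at 4064 to 6405 CPM in 3xTg-S and 3213 to 4946 CPM in WT-S.

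**Figure D2:**
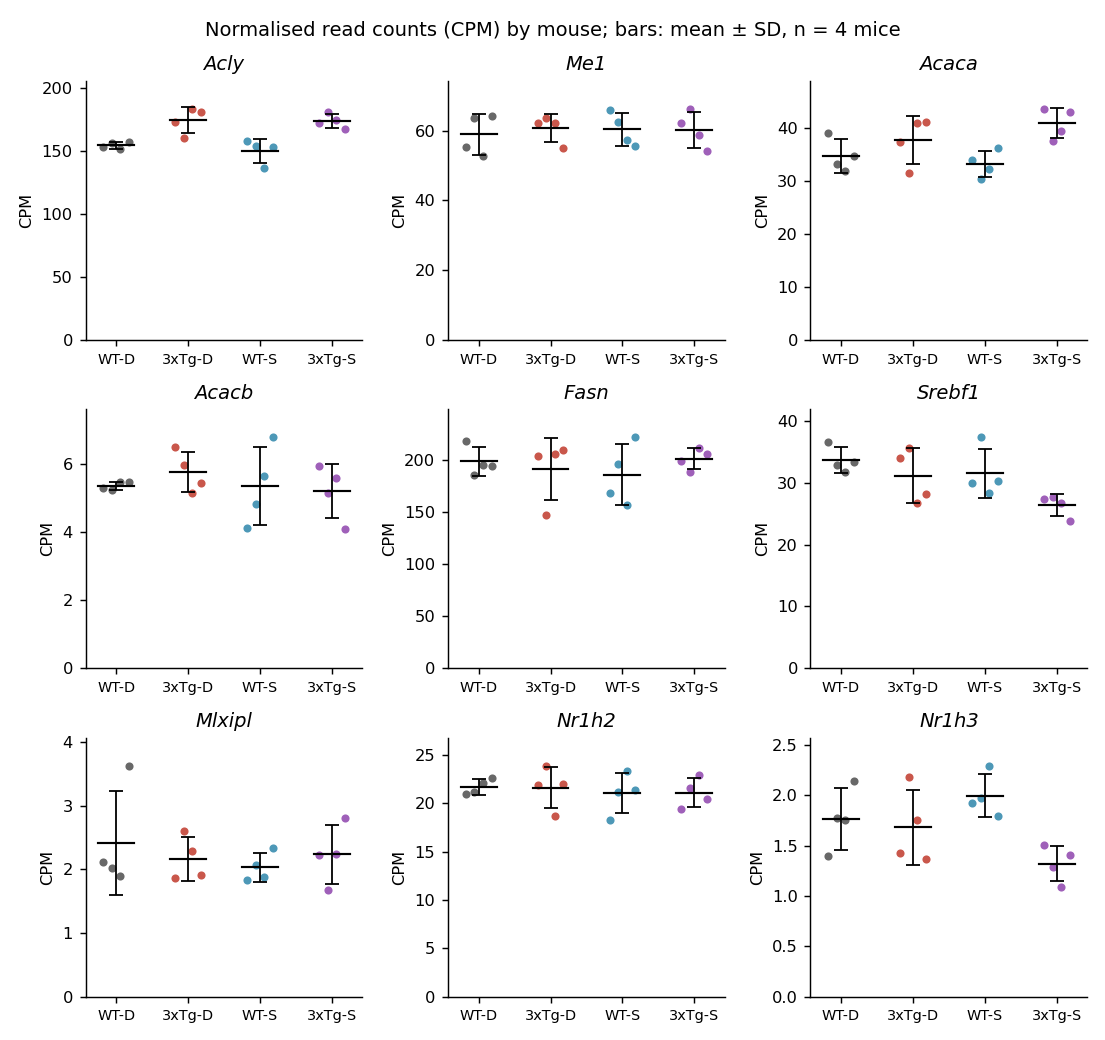
CPM of each member by mouse (points) in the 4 groups, with the mean and SD (n = 4 mice) and axes from 0. Acly lies higher in both 3xTg groups, at 160.1 to 183 CPM against 136 to 158 CPM in the WT groups, and Srebf1 has its lowest mean in 3xTg-S, at 23.9 to 27.7 CPM.

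Of the 9 members, Acly, Acaca, Fasn and Srebf1 lie on chromosome 11. The letters before the start site are given for Acly, which differed by genotype, for Fasn, which was not called in any comparison, and for Srebf1, which was lowest in 3xTg-S. Each is the 250 bases upstream of a RefSeq start (GRCm38.p6, minus strand, written 5′ to 3′). They are Acly at chr11:100528001-100528250, Fasn at chr11:120824548-120824797, and Srebf1 at chr11:60210472-60210721, which of 3 Srebf1 starts had the most matches. Capitals mark CCAAT (the box bound by NF-Y) and GGGCGG (the GC box bound by Sp1) on either strand.
Acly: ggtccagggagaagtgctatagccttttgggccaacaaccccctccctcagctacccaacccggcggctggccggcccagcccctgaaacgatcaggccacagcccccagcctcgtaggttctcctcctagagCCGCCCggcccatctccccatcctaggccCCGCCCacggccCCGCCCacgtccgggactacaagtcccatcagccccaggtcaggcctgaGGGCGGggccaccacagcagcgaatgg
Fasn: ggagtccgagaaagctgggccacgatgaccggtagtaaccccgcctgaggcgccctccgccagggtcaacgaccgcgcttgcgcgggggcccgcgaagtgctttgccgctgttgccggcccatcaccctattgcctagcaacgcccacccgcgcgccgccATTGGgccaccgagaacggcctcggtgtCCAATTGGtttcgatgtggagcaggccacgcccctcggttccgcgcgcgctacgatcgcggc
Srebf1: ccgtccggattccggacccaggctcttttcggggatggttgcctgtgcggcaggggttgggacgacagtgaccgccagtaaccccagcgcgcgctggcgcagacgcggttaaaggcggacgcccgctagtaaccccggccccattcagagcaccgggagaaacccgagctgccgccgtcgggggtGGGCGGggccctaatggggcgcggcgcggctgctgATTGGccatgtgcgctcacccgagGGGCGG

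The Acly window held 4 GC boxes and no CCAAT, the Fasn window 3 CCAAT and no GC box, and this Srebf1 window 2 GC boxes and 1 CCAAT. In Fasn the matches at -62 and -59, counted from the start, overlap on opposite strands. CCAAT stood in 33.9% and GGGCGG in 32.7% of all 32851 windows of this length. The E-box CACGTG (6.02% of windows) and TCACNCCAC, a form of the sterol regulatory element (1.05%), were in none of the printed windows. Across the 14 windows of the 9 members, each of these motifs was found once, both before starts of Mlxipl. Such matches describe letters and not bound sites.

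Among the other enzymes, Acaca, the cytosolic carboxylase (ENSMUSG00000020532.18, chr11:84129672-84401651, plus strand), was higher in 3xTg mice. It was 33.9, 30.3, 32.2 and 36.1 CPM in WT-S and 43.6, 37.5, 39.4 and 42.9 CPM in 3xTg-S, so that all 4 3xTg-S mice lay above all WT-S mice. The log2 difference of 0.29 ± 0.08 was called (edgeR, adjusted p = 0.161). Under vehicle, 39.0, 33.2, 31.8 and 34.6 CPM among WT-D mice overlapped with 37.4, 31.4, 40.8 and 41.2 CPM in 3xTg-D (log2 difference 0.12, 95% interval -0.09 to 0.33). Over both treatments Acaca was 15.7% higher in 3xTg and was called (edgeR, adjusted p = 0.0833). The call under SCDi was lost without WT-S mouse 1, 2 or 3 or 3xTg-S mouse 1 or 4, of which WT-S mouse 1 is the mouse high in choroid plexus markers. The call over both treatments was lost without WT-D mouse 3 or 4, 3xTg-D mouse 3 or 4, WT-S mouse 2 or 3, or 3xTg-S mouse 1, 3 or 4, and without both mice high in choroid plexus markers.

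Acacb, the mitochondrial carboxylase, was not called in any comparison. Its range was 5.24 to 5.46 CPM in WT-D, 4.13 to 6.78 CPM in WT-S, 5.15 to 6.48 CPM in 3xTg-D and 4.10 to 5.95 CPM in 3xTg-S, and all groups overlapped. Over both treatments the 3xTg minus WT log2 difference was 0.03 (95% interval -0.18 to 0.25).

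Fasn, the synthase downstream of the carboxylases, was 219, 186, 196 and 195 CPM among WT-D mice and 204, 147, 206 and 209.8 CPM in 3xTg-D. In WT-S it was 168, 197, 157 and 222 CPM, and in 3xTg-S 199, 189, 212 and 206 CPM. The groups overlapped in every pair compared, and 3xTg-D mouse 2 was the lowest of the 16 mice. The 3xTg minus WT log2 difference over both treatments was 0.03 (95% interval -0.14 to 0.20). Me1 showed means of 59.0 ± 5.83 CPM in WT-D, 60.4 ± 4.73 in WT-S, 60.8 ± 3.95 in 3xTg-D and 60.3 ± 5.21 CPM in 3xTg-S (SD, n = 4). Its genotype difference was 0.02 on the log2 scale, with a 95% interval of -0.10 to 0.14.

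Among the regulators, Srebf1 (ENSMUSG00000020538.15, chr11:60199089-60222581, minus strand) had its lowest mean in SCDi-treated 3xTg mice. It was 36.6, 32.9, 31.7 and 33.3 CPM in WT-D and 27.4, 27.7, 26.7 and 23.9 CPM in 3xTg-S, without overlap. WT-D and 3xTg-S differ in both genotype and SCDi, so this pair alone cannot tell them apart. Relative to WT-D, Srebf1 in 3xTg-S was lower by 22.5%. The log2 difference was -0.37 ± 0.07 (95% interval -0.53 to -0.20, edgeR's quasi-likelihood test, Benjamini-Hochberg adjusted p = 0.0392). At this adjusted threshold of 0.05, 1.58% of tested genes were called. The call at p of 0.01 or less held without each of the 8 mice in turn, WT-D mouse 4 with its choroid plexus markers included, with log2 differences of -0.39 to -0.32.

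The other comparisons of Srebf1 had smaller differences. The remaining groups were 34.1, 35.7, 26.7 and 28.2 CPM in 3xTg-D and 29.9, 37.4, 28.4 and 30.3 CPM in WT-S. Mice 1 and 2 of 3xTg-D lay within the WT-D range, and mice 3 and 4 within the 3xTg-S range or just above it. The log2 difference was -0.27 ± 0.10 for 3xTg-S vs WT-S, whose mice did not overlap (95% interval -0.50 to -0.04). It was -0.24 ± 0.10 for 3xTg-S vs 3xTg-D (95% interval -0.47 to -0.01), -0.11 ± 0.10 for 3xTg-D vs WT-D and -0.09 ± 0.09 for WT-S vs WT-D, none of which were called. Over all mice, Srebf1 differed by -0.18 by genotype (95% interval -0.33 to -0.03) and by -0.17 by SCDi (95% interval -0.32 to -0.02), and neither was called. Without 3xTg-D mouse 2 the genotype difference was called, at -0.23, and without WT-S mouse 2 the SCDi difference was, at -0.22. Srebf1 shares 109 exon bases with Rai1 on the opposite strand, and because the strand setting of the counting is not given in the sources used here, reads there cannot be assigned to either with certainty. It also shares 66 exon bases with the microRNA gene Mir6922 on the same strand, where reads are uncertain too. Within groups, Srebf1 followed the summed microglial markers across the 16 mice (r = 0.72, as a description, with both measures from the same libraries). This was not particular to microglia. Srebf1 also rose with the astrocyte (r = 0.60), oligodendrocyte (0.46) and oligodendrocyte precursor (0.41) sums. It went against the endothelial sum (-0.64) and the share of reads outside genes (-0.45). The microglial sum was 308 to 454 CPM in 3xTg-S and 310.5 to 512 CPM in WT-D, with 0 of 5 markers called. Blood markers summed to 29.6 to 122 CPM in 3xTg-S and 14.7 to 40.3 CPM in WT-D, with 2 of 4 called higher in 3xTg-S. The part of both sums in the Srebf1 difference was not tested. The oligodendrocyte sum overlapped between 3xTg-S and WT-D, and 2 of its 5 markers were called lower in 3xTg-S. With this sum as a covariate, the Srebf1 difference of 3xTg-S vs WT-D was -0.39 and stayed called. The difference of 3xTg-D vs WT-D then moved from -0.11 to -0.50 and that of 3xTg-S vs 3xTg-D from -0.24 to -0.12, neither of which was called. Because the sum did not overlap between 3xTg-D and WT-D, that fit could hardly separate it from genotype. By genotype over both treatments the Srebf1 difference moved from -0.18 to -0.27 and was called, as was that of 3xTg-S vs WT-S, at -0.30. By SCDi it moved from -0.17 to -0.10, not called. With this covariate, genes called rose from 1301 to 2414 of 16475 by genotype and from 702 to 2302 in 3xTg-S vs WT-S.

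Nr1h3 (LXRα, ENSMUSG00000002108.10, chr2:91184061-91202834, minus strand) was scarce, with 17 to 52 reads per mouse. In WT-S it was 1.93, 1.97, 2.29 and 1.79 CPM and in 3xTg-S 1.504, 1.288, 1.092 and 1.404 CPM, without overlap, a log2 difference of -0.61 ± 0.19 that was called (edgeR, adjusted p = 0.230). The lowest value, 1.09 CPM in 3xTg-S mouse 3, came from 17 reads, for which counting error alone gives a 95% Wilson interval of 0.682 to 1.75 CPM. The call was lost without each of the 8 mice in turn, with log2 differences of -0.67 to -0.53. WT-D, at 1.39 to 2.14 CPM, and 3xTg-D, at 1.36 to 2.18 CPM, overlapped with both. Without 3xTg-D mouse 2, Nr1h3 was also called lower by genotype over both treatments, at -0.43 on the log2 scale, against -0.32 with all mice, which was not called. Nr1h2 (LXRβ) was 20.9 to 22.6 CPM in WT-D, 18.3 to 23.3 CPM in WT-S, 18.7 to 23.9 CPM in 3xTg-D and 19.4 to 22.9 CPM in 3xTg-S, with overlap throughout. Its genotype difference over both treatments had a 95% interval of -0.12 to 0.12 on the log2 scale. Mlxipl (ChREBP) had 34 to 71 reads per mouse and group means of 2.41 ± 0.812 CPM in WT-D, 2.03 ± 0.228 in WT-S, 2.16 ± 0.345 in 3xTg-D and 2.24 ± 0.465 CPM in 3xTg-S (SD, n = 4), and was not called in any comparison. Mlxipl was highest in WT-D mouse 4, at 3.63 CPM, the mouse with 723 CPM of choroid plexus markers. Exons are shared, so that reads there are uncertain, between Mlxipl and Gm43500 (235 bases, opposite strands), Nr1h3 and Gm13783 (34 bases, same strand) and Me1 and A330041J22Rik (30 bases, opposite strands).

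The members were then counted by comparison at the study's threshold, beside the share of all tested genes called. In 3xTg-D vs WT-D, 1 of 9 members was called, Acly, against 4.91% of genes. In 3xTg-S vs WT-S, 2 of 9 were called, Acaca higher and Nr1h3 lower, against 4.26% of genes. In 3xTg-S vs WT-D, 1 of 9 was called, Srebf1, against 5.69% of genes. Acly in this last pair was 0.15 ± 0.05 higher on the log2 scale (edgeR, adjusted p = 0.196) and Acaca was 0.22 ± 0.08 higher (adjusted p = 0.263), and neither was called. Acly was called there without 3xTg-S mouse 4, and Acaca without WT-D mouse 1 or 3xTg-S mouse 2. Over both treatments, 2 of 9 members were called by genotype, Acly and Acaca, against 7.9% of genes, and 1 passed the adjusted threshold, against 4.93%. The groups did not overlap for 1 member in 3xTg-D vs WT-D (8.17% of genes), 4 in 3xTg-S vs WT-S (6.75%) and 2 in 3xTg-S vs WT-D (9.55%). These comparisons share groups, so their calls are not independent.

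SCDi against vehicle gave no called member in the fits of all mice without a replicate block. With WT-S mouse 2 left out, Srebf1 was called over both genotypes. With the replicate number as a block, Srebf1 was called over both genotypes and in 3xTg-S vs 3xTg-D, beside 226 and 1133 of 16475 genes. Without the block, 0 of 9 members were called by edgeR in 3xTg-S vs 3xTg-D. There 1, Srebf1, had an unadjusted p under 0.05 (0.904% of genes called, 6.33% under 0.05). In WT-S vs WT-D, 0 of 9 were called and 0 had p under 0.05 (0.188% and 2.25% of genes). Over both genotypes, 0 of 9 were called and Srebf1 alone had p under 0.05 (0.832% and 4.49% of genes). DESeq2 likewise called 0 members in each of these. The 95% interval of the SCDi difference over both genotypes was -0.10 to 0.06 for Acly, -0.11 to 0.16 for Acaca, -0.18 to 0.16 for Fasn and -0.11 to 0.13 for Me1 on the log2 scale. Acly passed the threshold in 3xTg-D vs WT-D and missed it in 3xTg-S vs WT-D, while the difference between 3xTg-S and 3xTg-D itself was -0.0046 on the log2 scale (95% interval -0.15 to 0.14). The genotype by SCDi interaction, which tests whether the SCDi difference depends on genotype, called 0 of 9 members by edgeR and 0 by DESeq2 (0.595% of genes), with 0 under an unadjusted p of 0.05 (4.98% of genes). The smallest p was that of Nr1h3 (edgeR, adjusted p = 0.788).

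**Figure D3:**
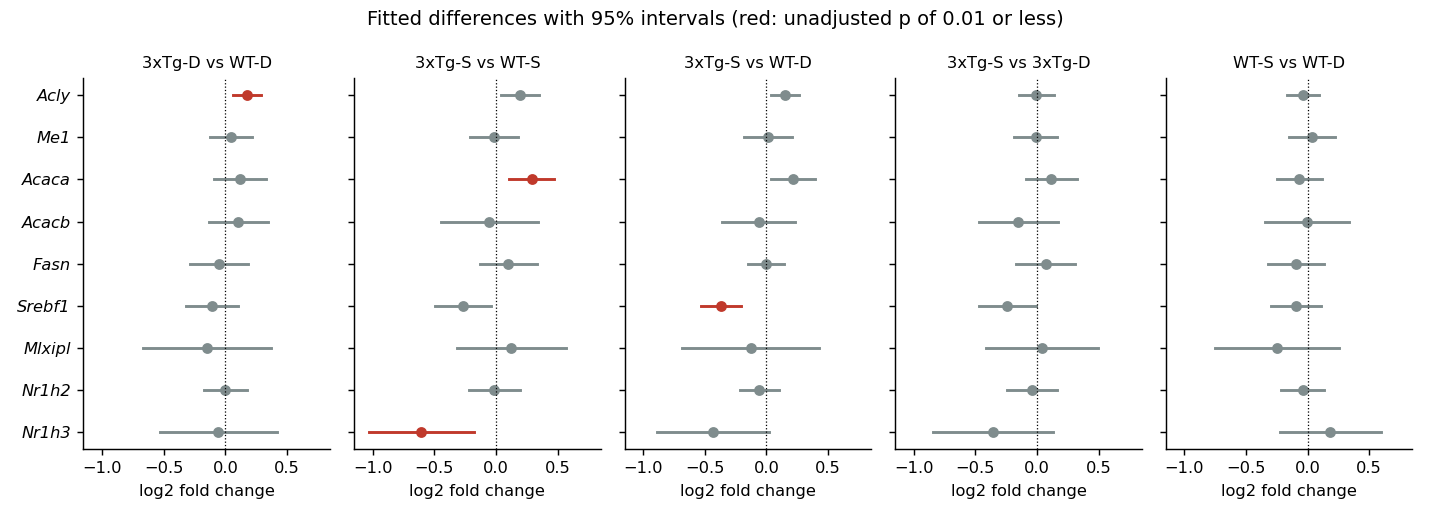
Log2 fold change of each member (points) with its 95% interval (lines) in 5 comparisons of 4 mice against 4 (red: unadjusted p of 0.01 or less by edgeR). Acly lies above 0 in the 3 comparisons of 3xTg with WT, and the comparisons of SCDi with vehicle hold no red point.

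Other genes that feed, regulate or follow the pathway were described from 9 lists of 61 genes, of which 59 were tested. The lists were chosen with earlier results of these data known, which limits any reading of their counts beside all tested genes. By genotype over both treatments, 6 were called higher and 2 lower, beside 3.88% and 4.02% of all tested genes, and the median log2 difference was 0.03, beside 0.01 over all tested genes. In the list of cholesterol synthesis genes under SREBP2, 2 of 7 were called higher and 0 lower, to be read beside the same 3.88% and 4.02%, with a median of 0.14. These were Hmgcs1, the cytosolic HMG-CoA synthase (0.34 ± 0.06, adjusted p = 0.00170 by edgeR), and Sqle, squalene epoxidase (0.24 ± 0.06, adjusted p = 0.0131). In the SREBP processing list, Srebf2, which encodes SREBP2 itself, was called higher (0.18 ± 0.04, adjusted p = 0.0163). All 6 genes of this list were fitted above 0, with a median of 0.08, beside 0.01 over all tested genes, and the other 5 were not called. The 2 SREBP genes thus had differences of opposite sign by genotype, Srebf1 short of the threshold; the difference between them was not tested.

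Among 6 LXR targets, 1 was called, Pltp, the phospholipid transfer protein, which was lower in 3xTg by 0.44 ± 0.05 on the log2 scale (edgeR, adjusted p = 1.53e-05). Between the 3xTg groups, Pltp was called lower under SCDi, by a log2 difference of -0.37 ± 0.07 (edgeR, adjusted p = 0.722). The median of the LXR targets was -0.01. The LXR partner Rxra was called higher in 3xTg (0.22 ± 0.06, adjusted p = 0.0510), as was the glucose-responsive gene Txnip (0.38 ± 0.13, adjusted p = 0.123). Txnip was called higher in 3xTg-D vs WT-D, by 0.56 ± 0.17, and lower in 3xTg-S vs 3xTg-D, by -0.60 ± 0.14 (edgeR, adjusted p = 0.181 and 0.722), and these comparisons share the 3xTg-D mice. In the elongation and desaturation list, Elovl1, an elongase of very long chains, was called higher (0.25 ± 0.07) and Scd1, a target of the inhibitor, lower (-0.25 ± 0.08, adjusted p = 0.0632). Neither passed the adjusted threshold of 0.05. By SCDi over both genotypes, 0 of the 59 were called higher and 3 lower, namely Txnip, Pltp and Elovl1, all with adjusted p of at least 0.688, beside 0.176% higher and 0.656% lower of all tested genes. No gene of the lists for citrate and NADPH supply, carboxylase regulation or mitochondrial fatty acid synthesis was called by genotype over both treatments. Within vehicle, 5 of 59 were called higher and 1 lower, among them Idh1, which makes cytosolic NADPH (0.21 ± 0.05), and Insig2, which retains SREBPs in the endoplasmic reticulum (0.19 ± 0.05). Neither Idh1 nor Insig2 passed the adjusted threshold of 0.05. The counts stand beside 2.44% higher and 2.47% lower of all tested genes. With both mice high in choroid plexus markers left out, 6 of the 59 were called higher and 2 lower by genotype over both treatments. All tested genes gave 2.8% and 3.85% in that fit, and Rxra lost its call and Idh1 gained one. Within vehicle, 1 was then called higher and 1 lower, beside 1.86% and 2.25% of all tested genes. The calls of Idh1, Insig2, Srebf2 and Txnip were lost there. By SCDi over both genotypes, 0 were called higher and 2 lower, beside 0.273% and 0.801%, and Elovl1 lost its call.

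**Figure D4:**
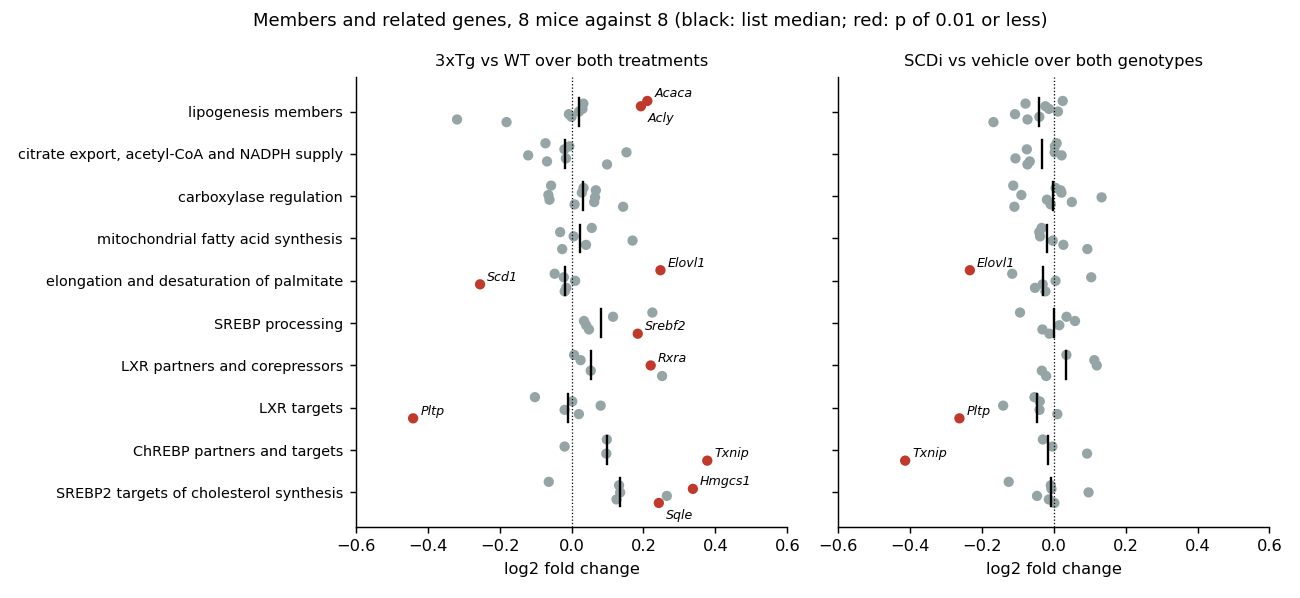
Log2 fold change of the 9 members and of the tested genes of 9 related lists (points) by genotype (left) and by SCDi (right), 8 mice against 8, with each list's median (black) and calls at p of 0.01 or less (red, named). Hmgcs1 and Sqle lie to the right by genotype, Pltp lies to the left in both panels, and Txnip lies to the right by genotype and to the left by SCDi.

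Last, the members were compared with each other within groups, after each group's mean was taken off (16 mice, as a description). The levels of Acaca and Fasn moved together (r = 0.68), as did those of Acly and Fasn (r = 0.55), whereas Fasn and Nr1h3 moved in opposite directions (r = -0.71). These values share library and depth, and 3xTg-D mouse 2, the lowest in Fasn, also had the highest astrocyte (3031 CPM) and microglial (664 CPM) marker sums. Over the 16 mice without group means taken off, the gene most like Acly was App (r = 0.93), that most like Fasn was Supt6 (r = 0.96), that most like Acaca was Slc22a15 (r = 0.89) and that most like Srebf1 was Gm14964 (r = 0.90). For the rest these were B230219D22Rik for Me1 (r = 0.83), Smtnl2 for Acacb (r = 0.79), Lnx2 for Mlxipl (r = 0.83), Kifc2 for Nr1h2 (r = 0.82) and Ucma for Nr1h3 (r = 0.88). Because group means were left in, differences between the genotypes, such as that of Acly, enter these values. The 3xTg mice carry a human APP transgene, and whether its reads were counted under App was not tested.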

How the data were processed

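RNA from the hippocampus of 16 female mice was sequenced (single-end reads with molecular identifiers). Per the labels and methods, the authors trimmed reads with Trimmomatic 0.35, aligned them with STAR 2.5.1b to GRCm38 with Gencode annotation, and deposited the counts as STAR gave them, not normalized. The strand setting and any removal of duplicates are not given in the sources used here. The 4 summary lines of the table held 23.95 to 27.81% of reads and were left out. Genes were filtered with filterByExpr (minimum count 10, minimum total 15) in edgeR 4.0.16 (R 4.3.3), which left 16475 of 33942 genes with a count. Groups were compared pairwise after TMM scaling, as 8 mice against 8 and by interaction, with its two-sided quasi-likelihood test and Benjamini-Hochberg adjustment over all tested genes. The threshold for a call was the study's, p of 0.01 or less before adjustment. Log2 CPM used a prior count of 2. Exon lengths came from Gencode M21 and promoter sequences from RefSeq, both on GRCm38, and all 9 members matched. Marker sums were compared by exact permutation tests in scipy.

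The members and gene lists were chosen with earlier results of these data known. All members are named. Of the other pathway genes, those called are named, and for each member the gene with the highest correlation over the 16 mice. The fits were tested on simulated counts with known changes. Alternatives were DESeq2 1.42.0 with median-ratio or DEGES size factors (3 iterations, written from its description without the TCC package), other scaling, filters and thresholds, all mice in a single fit, a replicate block, 3 covariates, each mouse left out, and, chosen after the data were seen, both mice high in choroid plexus markers left out. Same-numbered mice deviated together in every pair for WT-S and WT-D (r = 0.114 to 0.340 across genes). WT-S and WT-D were not alone in this. The lowest r was also above 0 for WT-D and 3xTg-S (0.062), 3xTg-D and 3xTg-S (0.016) and 3xTg-D and WT-S (0.00019). The main fits used no block in any comparison. In WT-S vs WT-D the block changed no member's call and raised the genes called from 31 to 115. No label says what the numbers mark.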

Additional observations from a re-analysis of the deposited data

Results flagged for a closer look

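Of 36 sets of 4 mice checked (9 genes in 4 groups), 2 held a mouse far from the others of its group by Dixon's test, and chance flags about 1 in 20. Fasn in 3xTg-D mouse 2 was 146.9 CPM, against 204.2 to 209.8 CPM in the other 3 mice. Without this mouse, Acly in 3xTg-D vs WT-D remained called at a log2 difference of 0.21, and Srebf1 and Nr1h3 passed the threshold by genotype over both treatments (log2 differences of -0.23 and -0.43). Mlxipl in WT-D mouse 4 was 3.63 CPM, against 1.90 to 2.11 CPM in the others, and the same mouse had 723 CPM of summed choroid plexus markers. The part of those markers in its Mlxipl level was not tested.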

How the results depend on the processing

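Of 1593 single values recomputed under other settings, 1521 kept their side of the threshold, 48 lost it, 24 gained it and 0 called values reversed; 157 differences called in neither fit changed sign. The number of called members in 3xTg-D vs WT-D was 1 and became 0 at an adjusted p of 0.05, with no filter on low counts, with the choroid plexus or oligodendrocyte score as a covariate, and with both mice high in choroid plexus markers left out, which for this pair is the fit without WT-D mouse 4. In 3xTg-S vs WT-S it was 2 and became 0 at the adjusted threshold and without those mice, 1 with no filter or the choroid plexus covariate, and 3 with all 16 mice in a single fit (Acly added) or the oligodendrocyte covariate (Srebf1 added). In 3xTg-S vs WT-D it was 1 and became 2 with either form of DESeq2, median-ratio size factors, 10 counts in every mouse, all 16 mice in a single fit and the outside-gene share as a covariate, Acly being added in each. By genotype over both treatments it was 2 and became 1 at the adjusted threshold, with the choroid plexus covariate and without those mice, and 3 with the oligodendrocyte covariate (Srebf1 added). With DESeq2, Nr1h3 was not called in 3xTg-S vs WT-S, where Acly was. Genes called, of 16475, moved as well. With the oligodendrocyte covariate they went from 809 to 226 in 3xTg-D vs WT-D and from 702 to 2302 in 3xTg-S vs WT-S. By genotype they went from 1301 to 2414. The choroid plexus covariate gave 659, 542 and 1090 in these comparisons. All 16 mice in a single fit gave 965 in 3xTg-S vs WT-S. In 3xTg-S vs WT-D, DESeq2 with median-ratio size factors gave 1031, against 937. The cause of these moves was not tested.

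Leaving out each mouse in turn gave 0 to 1 called members in 3xTg-D vs WT-D, 0 to 1 in 3xTg-S vs WT-S, 1 to 2 in 3xTg-S vs WT-D, 1 to 4 by genotype and 0 to 1 by SCDi over all mice, and 0 to 0 in the other comparisons. With the replicate number as a block, called members were 0 in 3xTg-D vs WT-D, 1 in 3xTg-S vs 3xTg-D (Srebf1, at -0.24 on the log2 scale), 0 in WT-S vs WT-D, 3 in 3xTg-S vs WT-S, 2 in 3xTg-S vs WT-D, 3 by genotype, 1 by SCDi (Srebf1) and 0 by interaction. The block moved the genes called from 149 to 1133 in 3xTg-S vs 3xTg-D (0 to 204 at the adjusted threshold), 702 to 1339 in 3xTg-S vs WT-S (230 to 517), 98 to 624 by interaction and 137 to 226 by SCDi (0 and 0 in both). The block also moved genes called from 809 to 944 in 3xTg-D vs WT-D, 937 to 1075 in 3xTg-S vs WT-D and 1301 to 1620 by genotype. Outside WT-S and WT-D, same-numbered mice correlated at -0.101 to 0.496. Their mean r ran from 0.041 for WT-D and 3xTg-D to 0.24 for WT-S and 3xTg-S. The mean for WT-S and WT-D was 0.22. Across all groups, 11 of 16 mice correlated best with their own number. Whether the numbers mark pairs in any of these groups cannot be settled from these values or the labels. Mlxipl and Nr1h3, at 17 to 71 reads per mouse, had 95% intervals too wide to show differences of the size seen in Acly. By genotype over both treatments, the intervals of Acacb (-0.18 to 0.25) and Fasn (-0.14 to 0.20) also held the Acly difference of 0.19.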
